A study of Homo sapiens with 6 samples.

Results

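Secreted cytokine genes were followed in MDA-MB-231 cells depleted of BYSL: IL11, IL6 and LIF, IL24, IL1A and IL1B, CXCL1, CXCL2 and CXCL8, and CSF2. These 10 genes of the 29538 in the deposited table were chosen by symbol, and the set was built around IL11 and IL24, which were selected on their large falls in this same contrast. The changes of the 10 genes are therefore given as a description and are not tested here. The MDA-MB-231 line comes from a human breast cancer and has an invasive, mesenchymal character. One group (siNC, 3 cultures) received a negative-control siRNA and the other (siBYSL, 3 cultures) the siRNA SI-BYSL-Homo-838 against BYSL, the gene of bystin, a factor of small ribosomal subunit maturation. Both groups received 160 pmol siRNA per well with the lipid reagent RNAiMAX, had the medium changed at 6 h and were harvested at 48 h. A single siRNA per group in a single cell line was used, so effects of BYSL loss and of that siRNA itself cannot be told apart.

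Cytokines are small secreted proteins by which cells signal to their neighbours. IL-6, IL-11 and LIF bind different receptors that share the signalling chain gp130 and act through JAK kinases and STAT3. IL-24 belongs to the IL-20 family, IL-1 alpha and IL-1 beta act through the IL-1 receptor and NF-kB, the chemokines CXCL1, CXCL2 and CXCL8 draw neutrophils through the receptor CXCR2, and CSF2 (GM-CSF) acts on myeloid cells. Basal-type breast cancer lines such as MDA-MB-231 are known to secrete several of these proteins. Their genes are typically driven by NF-kB, AP-1 and C/EBP factors, and their mRNAs typically carry AU-rich elements in the 3′ UTR that proteins such as tristetraprolin (ZFP36) bind to speed decay.

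The sequences that bear on these transcripts are shown first. The strands of the BYSL siRNA, as the labels give them, have their seed (bases 2 to 8) in capitals, because a seed can pair with 3′ UTRs of other genes.
guide strand: uAUUCAGCaacgucaucuctt
passenger strand: gAGAUGACguugcugaauatt
The heptamer that pairs with the guide seed, GCTGAAT, was found in the longest annotated 3′ UTR (GENCODE 29) of 1 of the 10 cytokine genes, IL1B, which held 1 site. IL11 and IL24 held none. Among 13065 tested genes with a 3′ UTR, 11.8% held the heptamer, and the median log2 fold change (siBYSL minus siNC) of those 1548 genes was -0.10, with 33.8% called lower and 15.1% higher. Of all 16412 genes tested, with or without such a 3′ UTR, 18.4% were called lower and 18.5% higher. The heptamer for the passenger seed, GTCATCT, was found in 2 cytokine genes, LIF (2 sites) and CSF2 (1 site), against 12.1% of the tested genes.

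All 10 cytokine genes held 3 or more copies of the AU-rich pentamer ATTTA in the 3′ UTR, as did 46.5% of tested genes. The longer nonamer TTATTTATT was present in 7 of the 10, against 9.35% of tested genes. The windows below, of 30 bases each, show the stretch chosen for its nonamers in the 2 chemokine genes that were higher in siBYSL, in CSF2 and in IL11, and 1 pentamer of IL24, which holds no nonamer. Pentamers are in capitals.
IL11: aagccagatcttATTTATTTATTTAtttca
IL24: gaagattcttgtATTTAttacaactctatt
CSF2: tttaaaatATTTATTTATTTATTTATTTAa
CXCL1: agtcttctATTTATTTATTTAttcattagt
CXCL2: ttctATTTATTTATTTATTTATTTAtttgt
These windows lie on GRCh38 at chr19:55365946-55365975 (minus strand), chr1:206903272-206903301 (plus), chr5:132076073-132076102 (plus), chr4:73870674-73870703 (plus) and chr4:74097585-74097614 (minus), in that order. IL11 had 9 pentamers and 6 nonamers in a 3′ UTR of 1618 bases. CXCL2 had 10 and 5 in 721 bases, and CSF2 had 8 and 3 in 318 bases. IL24 had 3 pentamers in 1154 bases. Of these genes, IL11, CSF2 and IL24 were lower and CXCL2 was higher in siBYSL. The part of AU-rich elements in the changes was not tested, and mRNA decay was not measured. Across the table, the 290 tested genes with 2 or more nonamers had a median log2 fold change of -0.01, and 24.1% of them were called lower and 20.3% higher. Of the 9526 tested genes with 1 or more pentamers, 21.3% were called lower and 20.6% higher.

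Promoters of 9 of the 10 genes were matched by symbol in RefSeq (GRCh38.p14), as 250 bases before to 50 bases after the start of the gene. A core NF-kB-type motif, GGNNTTTCC on either strand, was found in 4 of them: CXCL1 and CXCL2 (2 each), CXCL8 and IL6 (1 each). This core motif was added after the data were seen. It was found in 6.26% of 27305 promoters of that length. The AP-1 motif TGANTCA, which reads the same on both strands, was found in IL11, IL1A and CXCL8, against 7.76% of promoters. A wider NF-kB pattern (GGG, any 5 bases, then CC, on either strand), which overlaps the core motif in part, was found in 5 of the 9 and in 58.0% of all promoters. Promoters of IL11, which was lower, of CXCL1 and CXCL2, which were higher, and of CXCL8, which was not called, are printed. Core NF-kB and AP-1 matches are in capitals.
IL11: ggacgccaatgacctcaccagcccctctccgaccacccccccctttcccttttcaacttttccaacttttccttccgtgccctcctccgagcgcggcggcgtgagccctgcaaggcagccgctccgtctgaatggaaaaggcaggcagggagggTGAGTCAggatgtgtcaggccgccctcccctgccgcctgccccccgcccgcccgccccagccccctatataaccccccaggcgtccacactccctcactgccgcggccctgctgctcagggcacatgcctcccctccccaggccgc
CXCL1: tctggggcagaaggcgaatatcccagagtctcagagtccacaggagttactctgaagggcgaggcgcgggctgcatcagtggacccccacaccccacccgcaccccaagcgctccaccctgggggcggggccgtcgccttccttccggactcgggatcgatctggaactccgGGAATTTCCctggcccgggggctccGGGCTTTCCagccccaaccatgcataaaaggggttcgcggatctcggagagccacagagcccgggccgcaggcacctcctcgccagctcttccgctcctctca
CXCL2: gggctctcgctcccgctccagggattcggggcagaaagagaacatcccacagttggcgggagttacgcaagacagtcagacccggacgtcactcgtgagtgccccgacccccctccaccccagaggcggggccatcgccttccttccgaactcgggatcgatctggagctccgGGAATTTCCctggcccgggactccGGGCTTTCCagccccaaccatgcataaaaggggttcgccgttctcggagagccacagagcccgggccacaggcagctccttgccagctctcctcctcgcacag
CXCL8: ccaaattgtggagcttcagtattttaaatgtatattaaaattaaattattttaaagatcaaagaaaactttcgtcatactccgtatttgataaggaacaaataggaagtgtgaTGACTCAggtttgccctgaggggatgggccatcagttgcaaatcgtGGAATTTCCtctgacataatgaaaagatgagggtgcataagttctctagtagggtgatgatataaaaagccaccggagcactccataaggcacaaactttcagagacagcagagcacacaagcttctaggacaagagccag
They lie at chr19:55370414-55370713 (minus strand), chr4:73869143-73869442 (plus), chr4:74099146-74099445 (minus) and chr4:73740319-73740618 (plus). The AP-1 match of IL11 spans bases 96 to 90 before the start. The matches of CXCL1 and CXCL2 end 70 and 69 bases before the start, and each has a second one 53 to 45 bases before it. Such matches describe the letters only. Binding of a factor was not measured.

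Libraries held 27754883 to 32088817 counts, and every one of the 10 genes passed the filter on low counts. Library siBYSL 3 stood apart from siBYSL 1 and 2, with a chi-square per degree of freedom of 22.0 and 13.5 against them, while siBYSL 1 and 2 differed by 3.42 and siNC pairs by 2.50 to 4.76. The targeted gene itself, BYSL, had 99.9 ± 4.9 CPM (counts scaled to a common library total with TMM factors) in control cultures and 16.3 ± 0.94 CPM in depleted ones (SD, n = 3 each). Of markers of other cells, the leukocyte list (7 of 10 genes analysed) summed to 14.3 to 16.6 CPM in siNC and 17.3 to 21.7 CPM in siBYSL, mostly from CD14. Of its 2 tested genes, CD68 rose from 3.78 ± 0.31 to 5.32 ± 0.68 CPM (log2 fold change 0.49, edgeR adjusted p = 0.0136). CD14 was not called (0.20, edgeR adjusted p = 0.172). The part of these genes in the cytokine values was not tested. CD3E, MS4A1 and NKG7 of this list were not analysed here, and PTPRC, the pan-leukocyte marker, had 0.0926 and 0.169 CPM. Endothelial and fibroblast markers summed to 13.2 to 14.4 CPM in siNC and 15.4 to 17.3 CPM in siBYSL. None of the 3 tested was called. Luminal and epithelial markers summed to 764.7 to 805.9 CPM in control and 772.5 to 894.4 CPM in depleted cultures. KRT8 made up most of that sum (704.7 and 719.2 CPM), ESR1 and PGR had at most 0.280 CPM on average, and 3 of 5 tested genes rose: CDH1 by 1.04, EPCAM by 0.54 and ERBB2 by 0.27 on the log2 scale (edgeR adjusted p = 6.64e-05, 0.000164 and 0.00312). Mesenchymal markers summed to 3648 to 3718 and 3469 to 3663 CPM, and of 6 tested VIM and EGFR fell (by 0.21 and 0.23) while FN1 and CD44 rose (by 0.54 and 0.19; edgeR adjusted p between 0.00103 and 0.0383). The part of these marker changes in the cytokine values was not tested. Over all 16412 genes tested, 18.4% were called lower and 18.5% higher in siBYSL (edgeR quasi-likelihood test, adjusted p under 0.05), and 24.9% and 24.7% were lower or higher with no overlap between the groups. The split depended on scaling: 50.04% of calls were higher with TMM factors, 67.4% with library totals and 60.0% with upper-quartile factors.

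Of the 10 cytokine genes, 7 were called lower, 2 higher and 1 was not called in that fit over all genes, beside background shares of 18.4% lower and 18.5% higher. The same 9 genes showed no overlap between the groups in CPM. Nothing is read from these counts, since the set was chosen from this contrast. The median log2 fold change of the 10 was -0.60, against 0.01 for all genes tested. As in any bulk sample, fewer cells making a transcript and less of it per cell cannot be told apart.

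**Figure D1:**
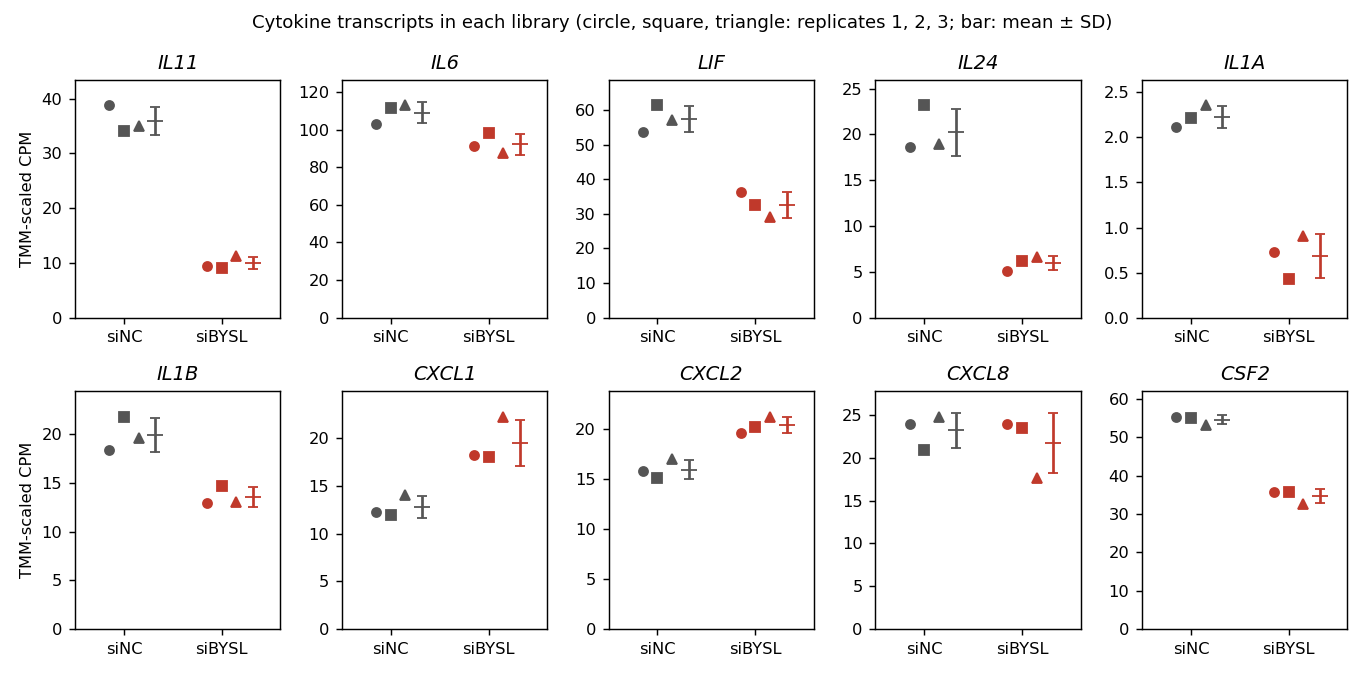
TMM-scaled CPM of the 10 cytokine genes in the 3 siNC (grey) and 3 siBYSL (red) libraries; circle, square and triangle are replicates 1 to 3, and the bar is the mean ± SD. All siBYSL libraries lie below all siNC libraries for 7 genes and above them for CXCL1 and CXCL2, and the groups overlap for CXCL8.

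Among ligands of the gp130 family, IL11 was the lowest in siBYSL relative to control. IL11 (ENSG00000095752.7, chr19:55364389-55370463, minus strand), known for roles in fibrosis and bone metastasis of breast cancer cells, had 1084, 954 and 1037 counts in the siNC libraries (replicates 1 to 3) and 272, 302 and 323 counts after BYSL depletion. In CPM these were 38.8, 34.0 and 34.9 against 9.43, 9.14 and 11.2. The groups were far apart, and the highest siBYSL library lay far below the lowest siNC library. The means were 35.9 ± 2.5 and 9.93 ± 1.1 CPM (SD, n = 3 each), 27.6% of control, with a log2 fold change of -1.86 (SE 0.091). In a ranking from the lowest fold change, IL11 came at rank 14 and BYSL at rank 4 among all 16412 genes tested. Among the 9932 tested genes with a mean of 10 CPM or more, they came at ranks 3 and 1.

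LIF (ENSG00000128342.5, chr22:30240447-30246851, minus strand), leukemia inhibitory factor, stood at 53.7, 61.4 and 57.1 CPM in siNC and at 36.3, 32.4 and 29.03 CPM in siBYSL. The groups did not overlap, and the siBYSL mean was 56.7% of control (log2 fold change -0.82, SE 0.084). IL6 (ENSG00000136244.12, chr7:22725884-22732002, plus strand), the founding member of the family, stood at 103.0, 111.4 and 113.2 CPM in siNC and at 91.2, 98.5 and 87.6 CPM in siBYSL. Its groups lay close together without overlapping, at -0.24 (SE 0.061). The IL6 call was lost with library totals (log2 fold change -0.16) and without siNC 3 (-0.22). The 3 ligands of 1 receptor family thus differed in size of change, from 84.6% of control for IL6 to 27.6% for IL11, all in the same direction. Genes annotated on the opposite strand across IL6 and LIF had at most 23 counts in any library.

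IL24 (ENSG00000162892.16, chr1:206897443-206904139, plus strand), an IL-20 family cytokine studied for its growth-suppressing action in tumour cells, had 520, 650 and 562 counts in siNC and 147, 204 and 189 in siBYSL. In CPM these were 18.6, 23.2 and 18.9 against 5.09, 6.17 and 6.56. The highest siBYSL library lay well below the lowest siNC library. The siBYSL mean of 5.94 ± 0.76 CPM was 29.4% of the siNC mean of 20.2 ± 2.6 CPM (SD, n = 3 each), with a log2 fold change of -1.77 (SE 0.12). IL24 came at rank 20 from the lowest among all genes tested and at rank 5 among those of 10 CPM or more.

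Both IL-1 genes, neighbours on chromosome 2, were lower. IL1A (ENSG00000115008.6, chr2:112773915-112784590, minus strand), which encodes IL-1 alpha, was scarce, with 59, 62 and 70 counts in siNC and 21, 14 and 26 in siBYSL. That made 2.23 ± 0.12 and 0.685 ± 0.24 CPM (SD, n = 3 each), 30.7% of control, at -1.72 (SE 0.24). The spread of siBYSL was 35.4% of its mean, the widest of the 10 genes, so the size of the IL1A difference is the least precise. IL1B (ENSG00000125538.12, chr2:112829751-112836903, minus strand), which encodes IL-1 beta, stood at 18.3, 21.8 and 19.6 CPM in siNC and at 12.9, 14.7 and 12.99 CPM in siBYSL. It kept 67.9% of its control level (-0.56, SE 0.088), again without overlap.

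The CXCR2 chemokines, clustered on chromosome 4, were the exception. CXCL1 (ENSG00000163739.5, chr4:73869393-73871242, plus strand) stood at 12.2, 12.0 and 14.1 CPM in siNC and at 18.2, 18.1 and 22.3 CPM in siBYSL, 1.53 times the control mean (log2 fold change 0.61, SE 0.10). CXCL2 (ENSG00000081041.9, chr4:74097035-74099293, minus strand) stood at 15.8, 15.1 and 17.0 against 19.7, 20.3 and 21.3 CPM, 1.28 times control (0.35, SE 0.074). Both were thus higher in every siBYSL library than in any siNC library. The higher CXCL1 value of siBYSL 3 contributed, and without that library its log2 fold change was 0.51.

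CXCL8 (ENSG00000169429.11, chr4:73740506-73743716, plus strand), the gene of interleukin-8, stood at 23.9, 20.9 and 24.8 CPM in siNC and at 24.0, 23.5 and 17.6 CPM in siBYSL. The groups overlapped, and only siBYSL 3 lay below the siNC range. The log2 fold change was -0.09 with a 95% interval from -0.32 to 0.13, which leaves room for a difference of either sign, and it was 0.03 without siBYSL 3. CXCL1 and CXCL2 are close copies: 300 of 321 coding bases (93.5%) were identical. The less abundant relative CXCL3 shared 94.4% of its coding bases with CXCL2 and 90.7% with CXCL1. CXCL3 had a mean of 2.60 ± 0.51 CPM in control cultures against 1.75 ± 0.41 CPM in depleted ones (SD, n = 3 each, log2 fold change -0.57, SE 0.21, edgeR adjusted p = 0.0516). CXCL3 was named after its values were seen, and it was called without siBYSL 1 (adjusted p = 0.0158) and with no filter (adjusted p = 0.0138). The treatment of reads that match several of these genes is not given in the sources used here, so the 3 values are less certain than those of CXCL8, which shared 64.4% with CXCL1.

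CSF2 (ENSG00000164400.6, chr5:132073790-132076170, plus strand), which encodes the growth factor GM-CSF, stood at 55.5, 55.1 and 53.3 CPM in siNC and at 35.8, 35.8 and 32.6 CPM in siBYSL. Both groups were tight, with SDs of 2.17% and 5.37% of the mean. It stood at 63.6% of control (-0.65, SE 0.060).

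**Figure D2:**
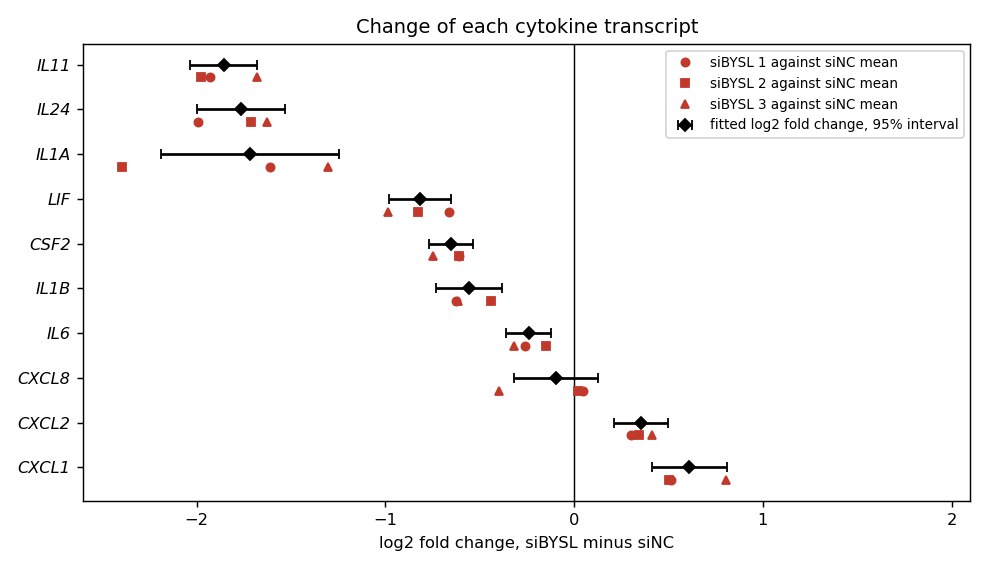
Log2 fold change of each cytokine gene (siBYSL minus siNC): black diamonds are the edgeR values with 95% intervals, and red symbols are the log2 ratios of siBYSL 1, 2 and 3 to the siNC mean. IL11, IL24 and IL1A lie between -1.86 and -1.72, LIF, CSF2, IL1B and IL6 between -0.82 and -0.24, CXCL8 spans 0, and CXCL2 and CXCL1 lie at 0.35 and 0.61.

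Levels of different genes were compared as CPM per kb of annotated exon (GENCODE 29). The length joined all annotated exons of a gene, 3096 bases for IL1B and 1979 for IL24, so the order depends on it. In plain CPM, IL1B and IL24 stood at 19.9 ± 1.8 and 20.2 ± 2.6 in siNC (SD, n = 3 each). In siNC, CSF2 was the most abundant at 69.4 ± 1.5, followed by IL6 at 52.8 ± 2.6. LIF (14.5 ± 0.97) and IL11 (13.4 ± 0.95) came next and did not differ beyond their spread. CXCL2, IL24, CXCL8 and CXCL1 lay between 9.83 and 10.6 and could not be ranked among themselves. IL1B followed at 6.43 ± 0.57 and IL1A at 1.05 ± 0.058 (SD, n = 3 each).

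In siBYSL the order was different. IL6 (44.7 ± 2.7) and CSF2 (44.1 ± 2.4) were level within their spread. CXCL1 (15.05 ± 1.84) and CXCL2 (13.6 ± 0.54), indistinguishable from each other, moved above CXCL8 (9.55 ± 1.6) and LIF (8.21 ± 0.92), whose ranges overlapped. IL1B (4.37 ± 0.33), IL11 (3.72 ± 0.42) and IL24 (3.00 ± 0.38) came below them, and IL1A was last at 0.322 ± 0.11 CPM per kb (SD, n = 3 each). IL11 thus went from above CXCL1 and CXCL2 to well below them.

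**Figure D3:**
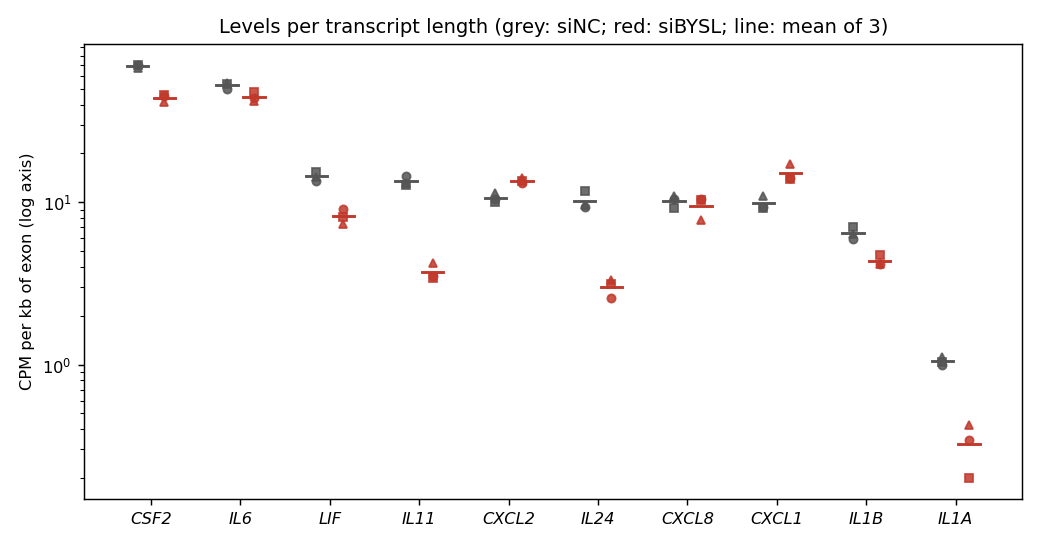
Level of each cytokine gene as CPM per kb of annotated exon on a log axis, in order of the siNC mean; grey is siNC, red is siBYSL, symbols are replicates 1 to 3 and lines are means. CSF2 and IL6 lie highest in both groups, and IL11, IL24 and IL1A show the widest gaps between groups.

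Genes whose log2 CPM followed that of IL11 most closely over the 6 libraries were VASP, CHAC1, MYEOV, TPD52L2 and WDR77, with Pearson r between 0.9994 and 0.9996 among 9931 genes. For IL24 they were TMEM243, PGAP6, RNF115, APEX2 and SMTN, with r between 0.9974 and 0.9990. Log2 fold changes lay between -1.16 and -0.31 for the genes like IL11 and between -0.66 and -0.39 for those like IL24. These values describe 6 libraries in 2 groups. A clear difference between the groups gives a high r by itself, so shared regulation is not read from them.

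The surrounding pathways were described with 12 lists of 151 other genes, of which 121 entries were tested. Of these, 43 fell (35.5%) and 14 rose (11.6%), beside 18.4% and 18.5% of all genes, and their median log2 fold change was -0.11. Nothing is read from these shares, since the lists were chosen with earlier results of these data known. Over the settings tried, 30 to 47 list genes fell and 12 to 21 rose. Of 120 tested list genes with a 3′ UTR, 17 held a guide-seed heptamer: 8 of the 43 that fell, 0 of the 14 that rose, and the others among genes not called. The part of the heptamer in the changes was not tested. Adjusted p-values for these genes are from the edgeR quasi-likelihood test with Benjamini-Hochberg adjustment over all genes.

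Other gp130 ligands were lower or not called: of 4 tested, 2 fell and 0 rose. CLCF1, a cytokine of the CNTF receptor, fell from 26.5 ± 0.92 to 20.8 ± 0.089 CPM (SD, n = 3 each; adjusted p = 0.00129), and EBI3, a subunit of IL-27 and IL-35, fell by 0.68 on the log2 scale (SE 0.15, adjusted p = 0.00481). CTF1, cardiotrophin, stood at 0.18 (adjusted p = 0.235). Of the 5 tested receptor chains 1 fell and 1 rose. IL6ST, which encodes gp130 itself, fell from 272.4 ± 9.5 to 118.9 ± 13.2 CPM (-1.20, SE 0.076, adjusted p = 2.15e-06), and its 3′ UTR held 1 guide-seed heptamer. LIFR, the LIF receptor, rose by 0.50 (adjusted p = 0.000833). OSMR, the oncostatin M receptor, stood at 0.20 (adjusted p = 0.0692), and it was called as well, making 2 that rose, with library totals, upper-quartile factors, no filter, or without siBYSL 3.

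Downstream of gp130, 3 of 17 JAK and STAT genes fell and 1 rose. STAT3, the main transducer of IL-6 and IL-11 signals, rose from 105.2 ± 1.6 to 141.5 ± 12.6 CPM (0.43, SE 0.065, adjusted p = 0.000516). The feedback inhibitor SOCS2 fell by 0.57 (adjusted p = 0.000101). Only 1 gene of this list fell without siNC 1, siNC 2, siNC 3 or siBYSL 2, or with the replicate block, and 4 rose without siBYSL 3 and 5 with library totals. In the IL-20 family, IL20RA, a receptor chain for IL-24, rose from 1.73 ± 0.16 to 4.97 ± 0.74 CPM (SD, n = 3 each; 1.53, SE 0.16, adjusted p = 4.48e-05), the 1 called gene among 4 tested. The other IL-24 receptor chains IL20RB and IL22RA1 stood at 0.01 and 0.03 (adjusted p = 0.972 and 0.898). IL24 and a gene of its receptor therefore changed in opposite directions.

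Of 3 tested IL-1 family ligands 1 fell. This was IL1RN, the IL-1 receptor antagonist, named after its values were seen, at 0.751, 0.999 and 1.48 CPM in siNC and 0, 0.303 and 0.347 CPM in siBYSL (adjusted p = 0.00693). The call was lost with the DESeq2 Wald test (adjusted p = 0.0593), and the gene was too low to be tested under the stricter filter. IL18, a cytokine processed by caspase-1, stood at -0.19 (adjusted p = 0.0652) and was called with no filter and without siBYSL 3, making 2 that fell. Of 18 tested genes of IL-1 receptors, processing and signalling 3 fell and 2 rose. CASP1, the protease that cleaves the IL-1 beta precursor, fell from 9.11 ± 0.61 to 4.43 ± 0.30 CPM (-1.04, SE 0.10, adjusted p = 3.45e-05) and held 2 guide-seed heptamers. The adaptor MYD88 fell by 0.39 (adjusted p = 0.000285), while the receptor IL1R1 rose by 0.56 (adjusted p = 0.00182).

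Of 10 other chemokine genes tested 5 fell and 2 rose, with a median of -0.57. CXCL11, a ligand of CXCR3, fell by 0.80 (adjusted p = 0.00138) and the membrane-bound CXCL16 from 12.6 ± 0.36 to 8.52 ± 1.1 CPM (-0.56, adjusted p = 0.00133). CX3CL1, fractalkine, rose by 0.39 (adjusted p = 0.0032). Only 1 chemokine gene rose without siNC 1, siNC 3 or siBYSL 2. Of the chemokine receptors, CXCR4, a receptor linked to metastasis, fell by 0.64 (adjusted p = 0.00062), and ACKR3, a scavenging receptor for the same ligand, rose by 0.66 (adjusted p = 0.00667). CXCR5 was called lower (-0.40, adjusted p = 0.0477), but not without siNC 1, siNC 3, siBYSL 1 or siBYSL 2, nor with library totals, upper-quartile factors, the stricter filter, DESeq2, limma-voom or the replicate block (adjusted p up to 0.173). CXCR1 and CXCR2, the receptors of CXCL8 and its relatives, were not analysed here.

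Colony-stimulating factors went different ways. CSF1 (M-CSF), a growth factor of macrophages, rose from 387.9 ± 9.9 to 472.7 ± 24.1 CPM (0.29, SE 0.055, adjusted p = 0.00225). CSF3 (G-CSF) fell by 1.04 (SE 0.27, adjusted p = 0.0104) from 2.29, 2.14 and 3.94 CPM to 1.04, 1.36 and 1.67 CPM. CSF2RA, a receptor chain for CSF2, is listed at both sex chromosomes, where reads cannot be assigned, at -0.86 and -0.51 (adjusted p = 0.0157 and 0.0619). In all, 2 of 6 tested entries fell and 1 rose. The count that fell was 1 without siNC 3 or siBYSL 2, and 2 rose without siBYSL 3.

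Of 13 other secreted cytokine genes tested 4 fell and 1 rose. IL23A, the p19 subunit of IL-23, stood at 2.93, 3.75 and 4.35 CPM in siNC and 0.693, 0.514 and 0.556 CPM in siBYSL, and fell by 2.65 (SE 0.22, adjusted p = 1.12e-05). IL12A, a subunit of IL-12 and IL-35, fell by 0.99 (SE 0.13, adjusted p = 0.000178). GDF15, a stress-induced cytokine of the TGF-beta family, rose from 15.7 ± 1.3 to 32.3 ± 1.9 CPM (1.04, SE 0.079, adjusted p = 6.51e-06). Without siNC 3, only 2 of this list fell. TNF had too few counts to be tested.

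**Figure D4:**
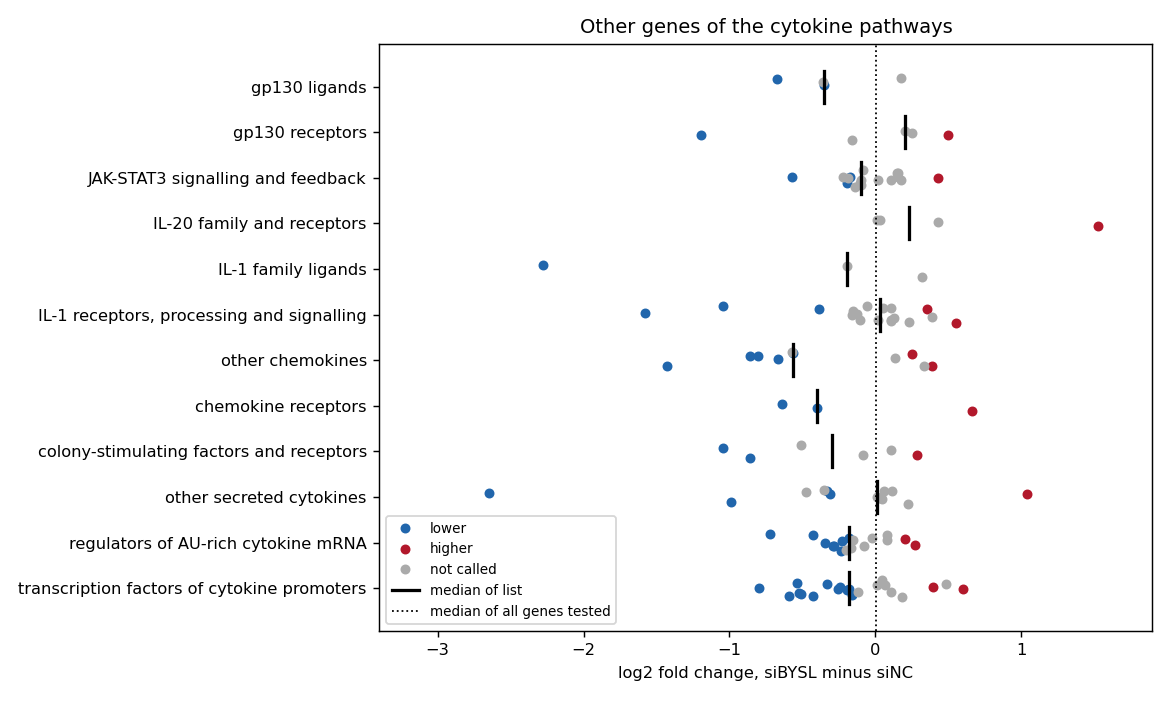
Log2 fold changes (siBYSL minus siNC) of the tested genes of the 12 lists; blue points were called lower, red higher and grey not called, black bars are list medians and the dotted line is the median of all genes tested. Calls lie on both sides in most lists, with IL23A at -2.65 and IL20RA at 1.53 as the extremes.

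The last lists covered regulators of cytokine mRNA and of cytokine promoters. Their counts stand beside 18.4% lower and 18.5% higher among all genes tested. Nothing is read from them, since the lists were chosen with earlier results of these data known. Of 17 tested genes of proteins that regulate cytokine mRNA, 8 fell and 2 rose. The list was not split by whether the protein speeds or slows decay. ZFP36 (tristetraprolin), which targets several of these cytokine mRNAs for decay, fell from 14.5 ± 0.49 to 8.75 ± 0.49 CPM (-0.72, SE 0.082, adjusted p = 7.41e-05). Its relative ZFP36L2 fell by 0.43 (adjusted p = 8.51e-05) and CNOT1, the scaffold of the CCR4-NOT deadenylase, by 0.34 (adjusted p = 0.000836). Another relative, ZFP36L1, named after its values were seen, went the other way. It rose from 129.0 ± 2.2 to 155.8 ± 5.3 CPM (0.27, SE 0.049, edgeR adjusted p = 0.00144). ZFP36L2 and CNOT1 each held 1 guide-seed heptamer. The list count of 8 was 5 without siNC 2 or siNC 3 and 3 with library totals, and 1 gene in place of 2 rose without siNC 1, siNC 3, siBYSL 1 or siBYSL 2.

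Of 21 tested NF-kB, AP-1 and C/EBP genes 12 fell and 2 rose, with a median of -0.18, and with library totals 8 fell and 4 rose. FOSL1 (FRA-1), the AP-1 subunit abundant in this type of cell, fell from 293.2 ± 7.6 to 168.4 ± 12.9 CPM (-0.80, SE 0.061, adjusted p = 6.62e-06). NFKB2 fell by 0.51 (adjusted p = 2.53e-05), and CEBPD rose by 0.60 (adjusted p = 0.000137). Set beside the promoter letters, the 4 genes with a core NF-kB match, CXCL1, CXCL2, CXCL8 and IL6, had log2 fold changes of 0.61, 0.35, -0.09 and -0.24. The core motif was added after the data were seen, so nothing is read from this grouping. CXCL8 also held an AP-1 match, as did IL11 and IL1A, at -1.86 and -1.72. IL24, IL1B and CSF2, with neither a core NF-kB nor an AP-1 match, stood at -1.77, -0.56 and -0.65. The wider NF-kB pattern was found in the 4 genes with a core match and in CSF2. Genes with an AP-1 match thus ranged from -1.86 to -0.09. Genes with neither a core NF-kB nor an AP-1 match ranged from -1.77 to -0.56. These values are a description, and their link to the motifs was not tested.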

How the data were processed

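RNA from 3 siNC and 3 siBYSL cultures was sequenced as strand-specific poly(A) libraries with paired 150 nt reads, per the labels' protocols. The authors deposited 1 table of raw counts, whole numbers for each gene in each library. HISAT2, DESeq2 and build GRCh38.p13 are named in the submitters' processing notes, without role or version. The counting tool, annotation release and strand setting were not given in the sources used here. Library totals set the precision, and low-count genes carry wider errors.

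Counts were filtered with filterByExpr (16412 of 29538 genes kept), scaled with TMM and compared with the edgeR 4.0.16 quasi-likelihood test (robust, group-only design) in R 4.3.3, with Benjamini-Hochberg adjustment over all genes and a threshold of 0.05. The SE was derived as |log2 fold change| over the root of the F statistic. P-values describe variation between cultures of 1 line. The test was checked on simulated data. The cytokine genes and lists were chosen with earlier results of these data known. Named list genes were up to 3 per list with the smallest p and a mean of 1 CPM or more, besides the 10 cytokine genes, BYSL and the 5 genes most like IL11 and IL24 (mean of 10 CPM or more). A gene that this rule names is not reported here. Likeness used log2 CPM (prior count 2). Gene positions, exon lengths and 3′ UTRs came from GENCODE 29 (GRCh38), promoters from RefSeq. The core NF-kB motif was added after the data were seen. Alternatives were no filter or a stricter one (1 CPM in 3 libraries), scaling by library totals, by upper-quartile factors or by DESeq2 1.42.0 size factors, the DESeq2 Wald test, limma-voom (limma 3.58.1), a replicate block and leaving out each library.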

Additional observations from a re-analysis of the deposited data

How the results depend on the processing

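Of the 10 cytokine genes, 7 were called lower under 12 of the 14 alternatives and 6 with library totals and without siNC 3, where IL6 was lost (log2 fold change -0.16 and -0.22). CXCL1 and CXCL2 were called higher in all 14. CXCL8 was not called in any and ran from -0.17 to 0.032 when single libraries were left out, with the sign changed without siBYSL 3. Across settings IL11 ran from -1.95 to -1.78, IL24 from -1.84 to -1.66 and IL1A from -1.97 to -1.45. With library totals 1989 genes were called lower and 4106 higher, in place of 3027 and 3032. The cause was not tested. With no call in any setting, IL20RB changed sign with no filter (-0.00049) and without siNC 3, siBYSL 1 or siBYSL 3 (range over single libraries left out -0.18 to 0.15), and IL22RA1 without siNC 1 or siBYSL 3 (-0.053 to 0.13). Counts of pathway genes ran from 30 to 47 lower and from 12 to 21 higher, and counts for single lists of few genes moved by over 1.5 times in most lists. Deviations of same-numbered libraries from their group means correlated at -0.13, 0.060 and 0.011, and those of differently numbered libraries between -0.17 and 0.15. With deviations from means of 3 libraries, these values cannot settle whether cultures were paired. The replicate block gave 2802 genes higher and 2764 lower, with 7 cytokine genes lower and 2 higher. Depth limits IL1A and the genes below 1 CPM most.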
